A study of Rattus norvegicus with 2 samples.

Results

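The genes described here encode the proteins that store, dock and release synaptic vesicles, the 3 neurofilament subunits, and a set of neuronal marker proteins. They were chosen by symbol alone: synaptotagmins (Syt), synapsins 1 to 3, Sv2a to Sv2c, syntaxins (Stx) and their binding proteins (Stxbp), VAMPs, genes whose symbol begins with Rab3, complexins (Cplx), Nefl, Nefm, Nefh, and Snap25, Syp, Tubb3, Stmn2, Gap43, Map2, Rbfox3, Gad1, Gad2 and Camk2a. The gene table held 92 such genes. Of these, 79 had a probe matched by RefSeq accession among 15159 genes with a probe, and 74 were well above background on at least 1 array, among 11902 genes with a difference. Because the letters Rab3 also open the symbols Rab30 to Rab39, 11 of the 92 are Rab GTPases other than Rab3, so the set is wider than its name.

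RNA came from rat intracranial artery and was hybridised to one-colour (Cy3) Agilent expression arrays. The control was an untreated intracranial arterial wall with normal disease state (1 array), and the other library was an intracranial aneurysm 3 weeks after its induction (1 array). The labels used here name no strain, age, induction method or number of animals for either group. With 1 array per group there is no replicate check, no test across samples could be run and no p-value is given. Every difference therefore describes these 2 libraries. Both arrays lay on the same slide.

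Transmitter release rests on a SNARE complex. Syntaxin and SNAP25 on the plasma membrane pair with VAMP2 on the vesicle, complexins and syntaxin-binding proteins control the pairing, synaptotagmin senses the calcium that triggers fusion, and Rab3 and synapsins govern the supply of vesicles. Relatives of these proteins, such as Stx4, Vamp3, Vamp8 and Stxbp3, do the same work in secretion and membrane traffic of nearly all cells. Neurofilaments are the intermediate filaments of axons. Arterial walls are innervated by sympathetic and sensory axons, whose cell bodies lie outside the vessel. The members were therefore also described as 42 genes known mainly from neurons and 50 other genes. This division was made from general knowledge, but with earlier results of these data known.

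Differences below are log2 aneurysm minus control, so that -1 is a 2-fold lower signal in the aneurysm library. Relative signal is the processed spot intensity divided by the array's 75th percentile (621 in the control and 801 in the aneurysm array). The value after ± is the spot error, from the spread of repeat spots of like signal within an array, and it holds no variation between animals. Levels are compared between arrays for 1 probe and not between probes of different genes. The exception is the summed signals of marker lists, which bright probes lead. Of the non-control spots, 74.7% and 76.4% were well above background in the control and aneurysm arrays, and no spot was saturated. All 11 smooth muscle marker genes with a probe, among them Acta2 and Myh11, passed the background test on both arrays; their median difference was 0.15.

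Few members differed 2-fold, but most of the neuronal ones were modestly lower in the aneurysm library. Of the 74 members, 3 were at least 2-fold lower (Syt2 and Tubb3 among them), against 3.91% of all genes, and 0 were at least 2-fold higher, against 0.882% of all genes. Tubb3 was well above background in both libraries and Syt2 in the control only. The 3 are 4.05% of the members, so the count is close to the background. At 1.5-fold, 11 members (14.9%) were lower against 8.43% of all genes, and 6 members (8.11%) were higher against 4.25%. In all, 46 of the 74 members had a lower value, against 49.8% of all genes. The median over members was -0.12, beside 0.001 over all genes. Of 72 members with repeat spots, 37 (51.4%) had every aneurysm spot below every control spot, against 33% of all such genes, and 23 (31.9%) had every one above, against 34.5%.

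The lower values lay mostly among the neuronal members. Of 36 measured genes known mainly from neurons, 28 were lower in the aneurysm library, and their median was -0.35, a 1.27-fold lower signal. Of the 38 other measured members, 18 were lower and 20 higher, with a median of 0.01. The spots of 25 of the 36 neuronal members lay wholly lower in the aneurysm library, those of 7 wholly higher, and those of 4 overlapped. Both arrays gave a signal well above background for 69 members, of which 44 were lower, and for 33 neuronal members, of which 26 were lower. With no filter at all, 50 of the 79 members and 31 of the 39 neuronal members with a probe had lower measured values, against 55.8% of all genes. In tissue RNA, fewer neuronal cells or axons and less RNA per cell cannot be told apart. Markers of oligodendrocytes, pituitary hormone cells and hepatocytes were lower too (medians -0.97, -0.61 and -5.34), while the median of smooth muscle markers was 0.15. Whether the 2 samples held different amounts of brain or other tissue was not tested.

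The direction depended partly on the scaling. Spike-in scaling, which uses added control transcripts, moved the median of all genes to 0.27. The median of all members was then 0.15 and that of the neuronal members -0.081, with 28 of the 74 members and 20 of the 36 neuronal ones below 0, against 20.1% of all genes. Relative to the median of all genes, the neuronal members stood at -0.35 under the reported scaling and -0.35 under spike-in scaling. Each of these scalings subtracts a constant from every spot of an array. The 2 values are therefore nearly equal by construction and are no separate check.

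**Figure D1:**
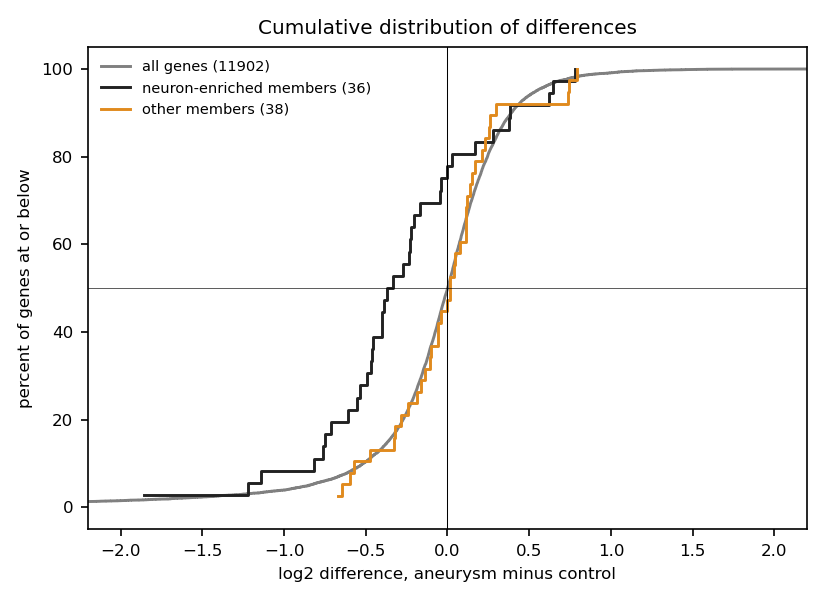
Cumulative percent of genes (vertical axis) at or below each log2 difference, aneurysm minus control (horizontal axis), for all 11902 genes, 36 neuron-enriched members and 38 other members. The curve of the neuron-enriched members lies to the left of the curve of all genes through its lower and middle part, with a median of -0.35, while that of the other members follows all genes, with a median of 0.01.

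Promoter sequence is shown for 3 members with lower values in the aneurysm library, Syn1 within 2 spot errors. Their windows hold short motifs, or part of a motif, known from neuronal genes. A link between motif and direction was not tested. RE1 is the site through which the REST repressor keeps neuronal genes silent in other cells, and the cAMP response element binds CREB. RefSeq's promoter table (GRCr8) matched 67 of the 92 members in 83 windows, and the 250 bases before each start were searched on both strands. The RE1 core, both arms with their spacer, was in 0 of the 83 windows and in 0.0269% of all 33469 windows. Its left arm alone, CAGCACC, was in 9 of the 83 (10.8%) against 5.43% of all windows. The genes were Tubb3 (-1.22), Syt4 (-0.76), Syn1 (-0.27), Rab32 (-0.11), Rab3gap2 (0.11), Stx18 (0.17), Rab3c, Sv2b and Syt15. Values for Rab32 and Stx18 are within their spot errors, and Rab32, Rab3gap2 and Stx18 are not among the neuronal members. Rab3c, Sv2b and Syt15 were dim in both libraries and have no reported difference. The cAMP response element TGACGTCA was in 2 of the 83, those of Syn1 and Vamp1, against 1.59% of all. In the following sequences, written 5′ to 3′ on the gene's strand, capitals mark the left arm of RE1 on either strand (Tubb3 and Syn1) and the cAMP response element (Syn1 and Vamp1), which do not overlap. The windows are chr19:68365437-68365686, chrX:3725495-3725744 and chr4:159698644-159698893 in that order, all on the plus strand.
Tubb3: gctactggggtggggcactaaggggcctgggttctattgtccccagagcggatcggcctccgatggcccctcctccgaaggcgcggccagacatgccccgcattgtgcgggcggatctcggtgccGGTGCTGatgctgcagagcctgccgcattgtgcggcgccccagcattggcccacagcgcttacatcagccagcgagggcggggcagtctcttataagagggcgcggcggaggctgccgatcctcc
Syn1: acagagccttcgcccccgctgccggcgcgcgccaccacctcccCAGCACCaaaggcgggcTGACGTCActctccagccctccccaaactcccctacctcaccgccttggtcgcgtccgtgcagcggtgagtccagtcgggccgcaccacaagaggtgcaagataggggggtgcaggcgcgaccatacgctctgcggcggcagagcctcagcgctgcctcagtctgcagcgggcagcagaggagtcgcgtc
Vamp1: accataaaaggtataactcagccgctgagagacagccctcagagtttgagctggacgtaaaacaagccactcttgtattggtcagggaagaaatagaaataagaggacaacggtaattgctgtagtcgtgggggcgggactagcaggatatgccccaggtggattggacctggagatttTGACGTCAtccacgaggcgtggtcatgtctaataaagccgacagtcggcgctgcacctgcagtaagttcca
A match is a string of letters and not a shown binding site.

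Among the general neuronal markers, the tubulin and microtubule genes showed the lowest values. Tubb3, the neuronal beta-tubulin of axons and dendrites, had a relative signal of 1.17 on the control array and 0.503 on the aneurysm array. Its difference was -1.22 ± 0.07 (2 spots per array), 2.33-fold lower. Of the members with a measured value on each array, rather than a bound, no other was 2-fold lower. Both Tubb3 spots of the aneurysm array (processed intensities 397 and 409) lay below both control spots (721 and 734), although the aneurysm array had the higher 75th percentile. Stmn2, stathmin 2, a regulator of microtubules in growing axons, had relative signals of 1.96 and 1.11 and differed by -0.81 ± 0.06. A second, dimmer Stmn2 probe gave -0.20 ± 0.09. Map2, the microtubule-associated protein of dendrites, had relative signals of 1.05 and 0.642 and differed by -0.71 ± 0.07. Gap43, a membrane protein of growth cones, had relative signals of 1.54 and 1.07 and differed by -0.53 ± 0.06. Camk2a, a kinase of excitatory neurons, differed by -0.49 ± 0.18 (relative signals 0.123 and 0.0872).

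Gad1 and Gad2 had higher values in the aneurysm library. Other markers of inhibitory neurons were not examined as a set. Gad1 and Gad2 encode the 2 glutamate decarboxylases that make GABA. Gad2 had relative signals of 0.137 and 0.211, a difference of 0.62 ± 0.17, with both aneurysm spots above both control spots. Gad1 had relative signals of 1.11 and 1.25 and differed by 0.17 ± 0.07, while a second Gad1 probe with 1 spot per array gave -0.02 ± 0.76. Slc32a1, the vesicular GABA transporter, is not a member and was looked up after the Gad1 and Gad2 values were seen; its relative signals were 1.51 and 2.32 on 1 spot per array, a difference of 0.62 ± 0.09. Rbfox3, with no matched probe, was not analysed here.

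**Figure D2:**
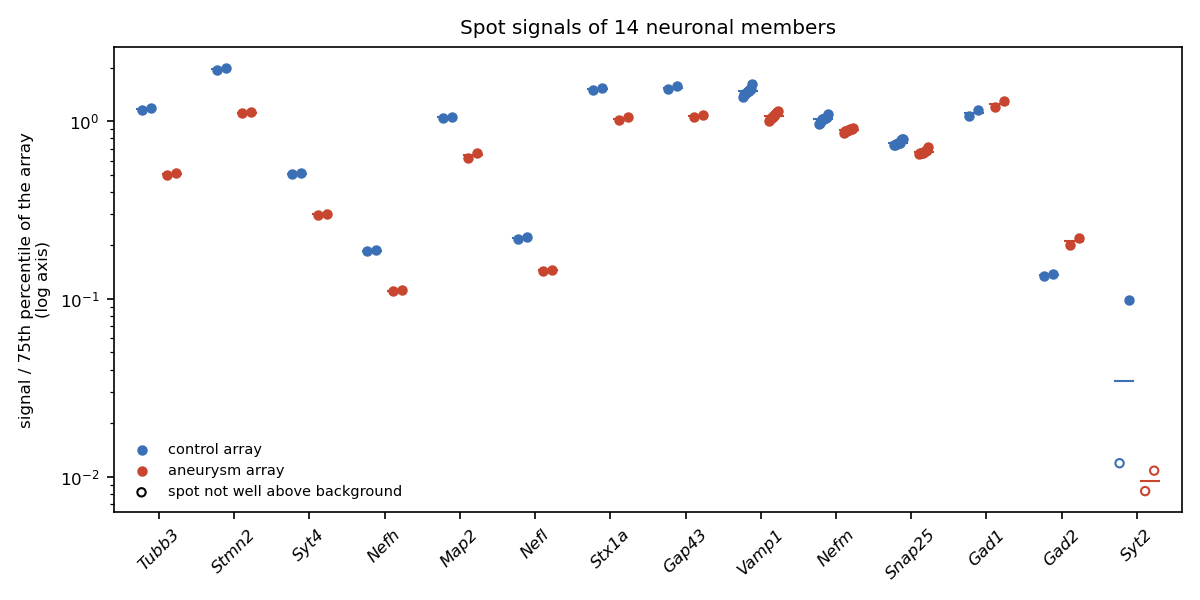
Signal of every spot divided by the array's 75th percentile (vertical log axis) for 14 neuronal members (horizontal axis), in the control array (blue) and the aneurysm array (red); horizontal marks are geometric means over spots and open circles are spots not well above background. Spots of Tubb3, Stmn2, Syt4 and the neurofilament genes are lower in the aneurysm array, those of Gad1 and Gad2 are higher, and Syt2 rests on 1 control spot well above background.

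The 3 neurofilament genes were all lower in the aneurysm library, none of them 2-fold, although Nefm was at 0.06 with spike-in scaling. Nefh, the heavy subunit, had relative signals of 0.187 and 0.111 and differed by -0.75 ± 0.14. Nefl, the light subunit, had relative signals of 0.22 and 0.144 and differed by -0.61 ± 0.14. Nefm, the medium subunit, was measured by 10 spots per array with relative signals of 1.03 and 0.891, a difference of -0.21 ± 0.03. For each of the 3 the spots of the aneurysm array lay wholly below those of the control array, a pattern that 33% of all genes with repeat spots showed. Nefh and Nefl stayed lower under spike-in scaling (-0.48 and -0.34).

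All 5 measured genes for vesicle membrane proteins and synapsins were lower by small amounts, though Syn3, whose spots overlapped between the arrays, was above 0 with spike-in scaling (0.05) and with quantile normalization (0.0043). Sv2a, a glycoprotein of synaptic vesicles and the binding site of the drug levetiracetam, had relative signals of 0.821 and 0.621 and differed by -0.40 ± 0.08. Sv2c differed by -0.47 ± 0.18 (0.141 and 0.102). Of the synapsins, phosphoproteins that hold vesicles in reserve, Syn2 differed by -0.37 ± 0.09 (0.533 and 0.413). Syn1 differed by -0.27 ± 0.20 (0.104 and 0.0859), and Syn3 by -0.22 ± 0.54. The Syn1 and Syn3 differences are within 2 spot errors. On neither array was Sv2b well above background, and Syp, with no matched probe, was not analysed here.

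The synaptic SNAREs Stx1a, Vamp1, Snap25 and Vamp2 had lower values in the aneurysm library, though Snap25 and Vamp2 were higher with spike-in scaling (0.10 and 0.23). Stx1a, the syntaxin of the presynaptic membrane, had relative signals of 1.52 and 1.03 and differed by -0.56 ± 0.06. Vamp1, the vesicle SNARE of many motor and sensory neurons, was measured by 10 spots per array with relative signals of 1.47 and 1.07, a difference of -0.46 ± 0.03. Its second probe gave -0.40 ± 0.21. Snap25 had relative signals of 0.758 and 0.674 over 10 spots and differed by -0.17 ± 0.04, but its second probe gave 0.18 ± 0.13, so its direction is not settled. Vamp2, the main vesicle SNARE of forebrain synapses, was nearly level, at -0.04 ± 0.06 (2.30 and 2.23).

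Syt2, the fast calcium sensor of hindbrain and neuromuscular synapses, was past 2-fold but dim, and in the aneurysm library it was not well above background. Its 2 control spots had processed intensities of 7.38 and 61.4 and its aneurysm spots 6.64 and 8.66. The spots of 1 array thus differed more than the arrays did, and the bound of -1.86 ± 0.72 rests on 1 spot. Under normexp background correction Syt2 was at -0.79, under 2-fold.

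The 17 remaining syntaxins and VAMPs, most of which serve membrane traffic in many cells, were spread around 0, with 8 lower and 9 higher. Stx4 and Vamp3, which act in secretion at the surface of non-neuronal cells, differed by 0.01 ± 0.06 and -0.04 ± 0.05. Stx7 of late endosomes (0.23 ± 0.07), the muscle and endothelial gene Vamp5 (0.30 ± 0.06) and Vamp8 of lysosome and granule fusion (0.12 ± 0.06) were slightly higher, while the Golgi syntaxin Stx6 was at -0.10 ± 0.06. Stx11, an immune-cell syntaxin needed for killing by lymphocytes, was well above background in the aneurysm library only, with a bound of 0.74 ± 0.61. The lowest was Stx19 at -0.67 ± 0.28, on 1 spot per array.

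Of 14 measured synaptotagmins 9 were lower and 5 higher, the widest spread of any role. Syt4, a synaptotagmin of dense-core vesicles, had relative signals of 0.507 and 0.299 and differed by -0.76 ± 0.10. A second Syt4 probe gave a lower value still, -1.43 ± 0.24. Syt5 differed by -0.40 ± 0.06 (2.46 and 1.86), and Syt11, which does not bind calcium, by -0.57 ± 0.10 over 6 control and 9 aneurysm spots. Syt17 (-0.60 ± 0.18) and Syt7, the slow sensor of lysosome and granule release (-0.64 ± 0.44), were at least 1.5-fold lower. Syt1, the fast calcium sensor of forebrain synapses, had relative signals of 0.0759 and 0.0647 and a difference of -0.23 ± 0.27, within its spot error.

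The other 5 synaptotagmins had higher values. Syt8 differed by 0.79 ± 0.25 (0.0578 and 0.1) and Syt6 by 0.64 ± 0.51. Syt10 was well above background in the aneurysm library only, and was there at least 1.72-fold higher. With normexp Syt8 was at 0.26 and Syt6 at 0.01. Syt3 (0.38 ± 0.25) and Syt12 (0.37 ± 0.17) made up the rest, and on neither array was Syt15 well above background.

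Of 8 measured SNARE regulators 6 were lower and 2 higher. The 3 measured complexins, which control the assembled SNARE complex, were lower, with Cplx1 at 0.03 under spike-in scaling and at 0.25 as the mean over its 2 probes. Cplx2 had relative signals of 5.01 and 3.64 and differed by -0.46 ± 0.06. Cplx3 differed by -0.33 ± 0.18 and Cplx1 by -0.24 ± 0.06, while a second, dim Cplx1 probe gave 0.74 ± 0.25. Stxbp3, a syntaxin-binding protein of non-neuronal exocytosis, was higher in the aneurysm library, with relative signals of 1.32 and 1.57 over 10 spots and a difference of 0.25 ± 0.03. Stxbp6, also called amisyn, was at -0.48 ± 0.18 and Stxbp5, tomosyn, at -0.33 ± 0.14. On neither array was Cplx4 well above background.

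The Rab genes differed little between the libraries. Rab3a, the main Rab of synaptic vesicles, had relative signals of 0.269 and 0.261, a difference of -0.04 ± 0.14, and its spots overlapped between the arrays. Rab3b, found in pituitary and other secretory cells besides neurons, had relative signals of 3.50 and 4.23 and differed by 0.28 ± 0.06. Rab3d of exocrine granules was at 0.04 ± 0.14, and the Rab3 regulators Rab3il1, Rab3gap2 and Rab3ip were at 0.26, 0.11 and 0.08. The 9 measured genes from Rab30 to Rab38 had a median of 0.01, from Rab36 at -0.29 ± 0.06 to Rab38, a melanosome Rab well above background in the aneurysm library only, at a bound of 0.74 ± 0.62. On neither array were Rab3c and Rab39a well above background. Without Rab30 to Rab39 the median over members was -0.18.

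**Figure D3:**
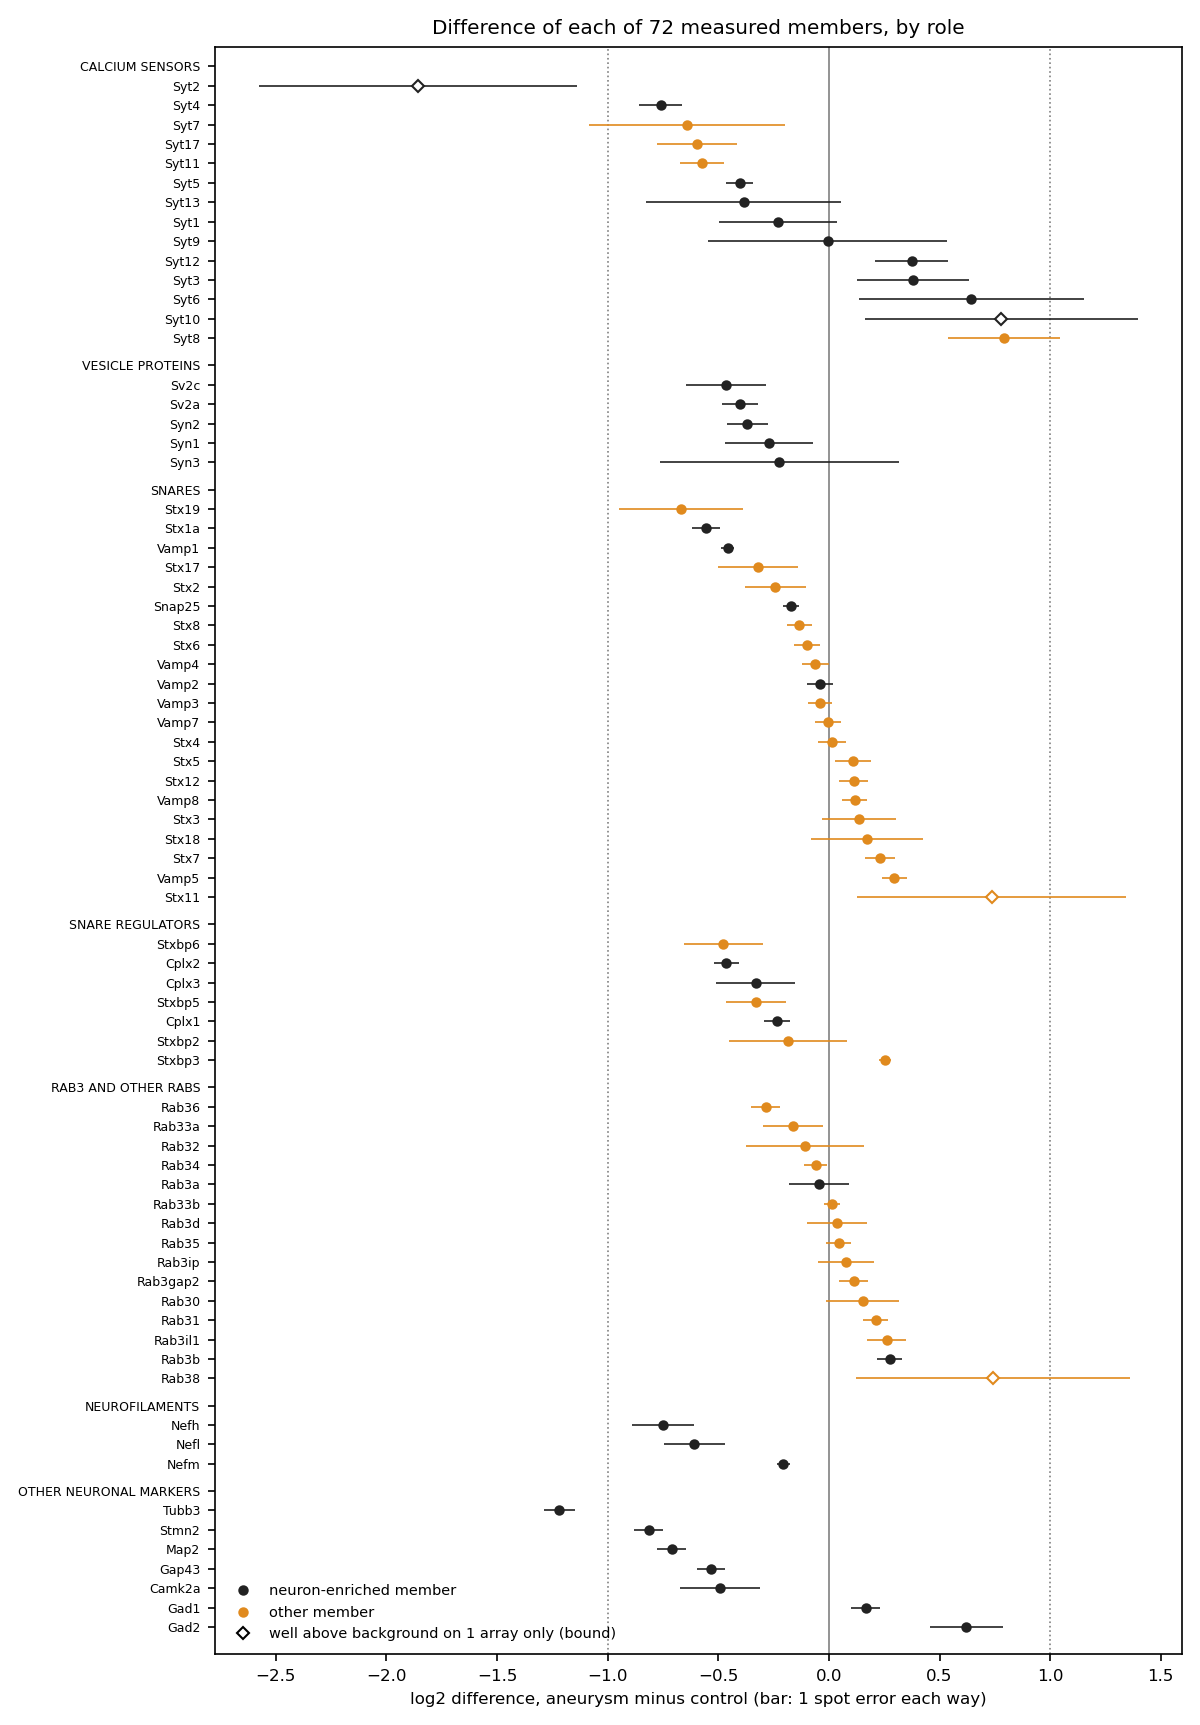
Log2 difference, aneurysm minus control (horizontal axis; bars are 1 spot error each way), of 72 measured members grouped by role, with neuron-enriched members in black, other members in orange, open diamonds for genes well above background on 1 array only and dotted lines at 2-fold. The neurofilaments, vesicle proteins and the synaptic SNAREs plotted lie left of 0, the other SNAREs and the Rabs lie around it, and the synaptotagmins spread on both sides; with spike-in scaling Nefm, Syn3, Snap25 and Vamp2 lie right of 0.

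Other genes of the vesicle cycle lay on both sides of 0. Of 38 measured genes of the active zone and vesicle cycle outside the symbol rule, 22 were lower and 16 higher. Their median was -0.17, and 49.8% of all genes were lower. In this list 3 genes (7.89%) were at least 2-fold lower, against 3.91% of all genes. At least 2-fold higher was 1 gene, against 0.882% of all genes. Rph3a, a Rab3 effector, differed by -1.43 ± 0.23, and Cadps, a priming factor of dense-core vesicles, by -1.16 ± 0.09. Slc17a6, the vesicular glutamate transporter of subcortical neurons, differed by -1.10 ± 0.07 over 10 spots. Synpr, synaptoporin, was well above background in the aneurysm library only, where it was at least 2.82-fold higher. Under spike-in scaling the median of this list was 0.09.

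Of 27 measured neuronal cytoskeleton and identity genes outside the rule 22 were lower, against 49.8% of all genes. Their median was -0.41 (-0.14 with spike-in scaling), and 2 (7.41%) were at least 2-fold lower, against 3.91% of all genes. The lowest were Elavl4, a neuronal RNA-binding protein (-1.34 ± 0.15), and Nrgn, a calmodulin-binding protein of forebrain dendrites (-1.08 ± 0.07). Mapt, which encodes tau, differed by -0.83 ± 0.06 and Ina, the internexin that assembles with neurofilaments, by -0.82 ± 0.09. Of 12 measured genes of peripheral sympathetic and sensory neurons, 9 were lower and 3 higher (median -0.57), with Scn9a at a bound of -1.83 ± 0.72, Npy at -1.03 ± 0.03, Isl1 at 1.01 ± 0.50 and the substance P precursor Tac1 at 1.59 ± 0.08. Several of these 12 genes are also expressed in brain.

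Most markers of other brain and endocrine cell types were lower in the aneurysm library too. The share of all genes with a lower value was 49.8%. Oligodendrocyte markers were lower for 15 of 16 measured genes, with a median of -0.97. Summed relative signals are given for the control and then the aneurysm array; each sum is led by its bright probes and is not compared between lists. The oligodendrocyte sum was 176 and 91.9, of which Mbp alone made up 153 and 78.8, and 22.8 and 13.1 without Mbp. The sum of the neuronal members was 31.6 and 25.8. Astrocyte markers were lower for 10 of 12 (median -0.15, or 0.12 with spike-in scaling; summed 162 and 144), and Schwann cell markers for 7 of 10 (median -0.07, or 0.20 with spike-in scaling). Pituitary hormone cells also release by SNAREs; their markers were lower for 8 of 10 (median -0.61; summed 13.4 and 5.58), with Pomc at -2.97. Hepatocyte markers were lower for 10 of 10 (median -5.34; summed 45.8 and 8.58). Ttr, at -1.42 the least lowered of the 10, alone made up 21.2 and 7.93 of that sum. The other hepatocyte markers summed to 24.6 and 0.647. Mast cell and platelet markers were lower for all 6 measured genes of 9 with a probe (median -0.66; summed 1.28 and 1.03). No oligodendrocyte or astrocyte marker was below the background limit in either library. The part of these other cell types in the differences of the members was not tested.

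**Figure D4:**
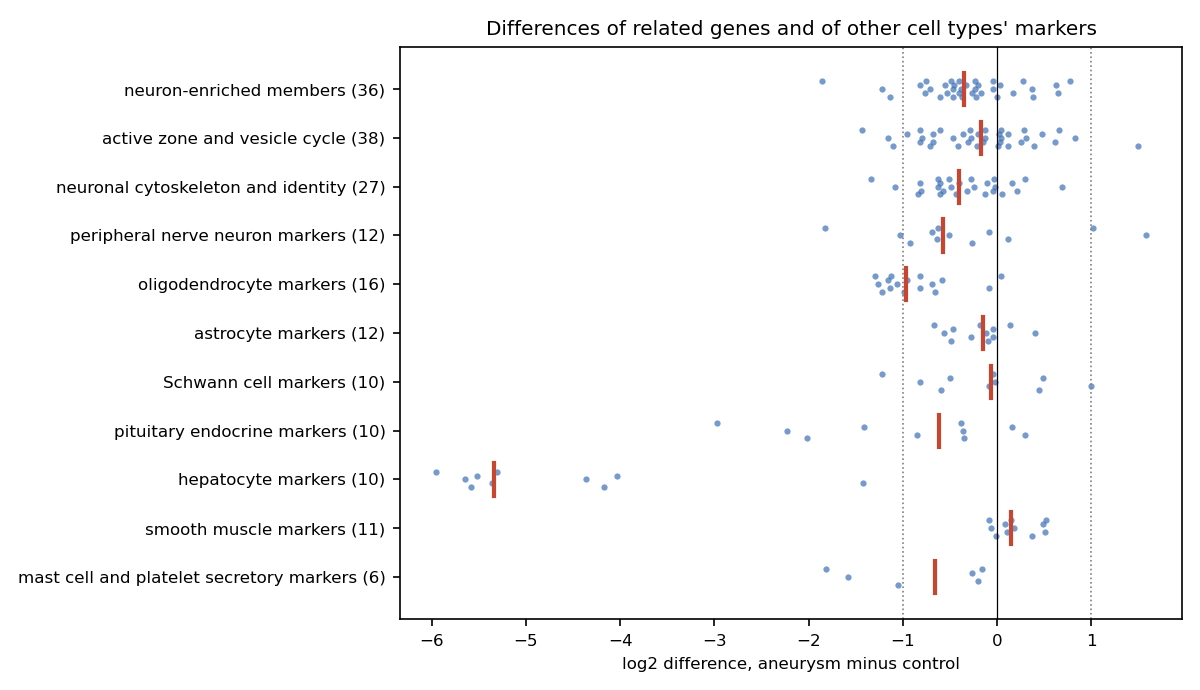
Log2 difference, aneurysm minus control (horizontal axis), of each measured gene (blue points) in the neuron-enriched members, in related gene lists and in marker lists of other cell types (vertical axis, with the number of genes), with red bars at the medians and dotted lines at 2-fold. The medians under the reported scaling run from -5.34 for hepatocyte markers through -0.97 for oligodendrocyte markers and -0.35 for neuron-enriched members to 0.15 for smooth muscle markers.

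Over the 9 other settings and the reported one, 20 of the 36 neuronal members were lower throughout, 7 were higher throughout and 9 had both signs. Those lower throughout are 55.6% of the neuronal members, beside 2381 of 11902 genes in all, and those higher throughout 19.4%, beside 35.8%. Without spike-in scaling, which shifts all genes by the same amount, 24 neuronal members (66.7%) were lower throughout, beside 40.8% of all genes. Tubb3 ranged from -1.27 to -0.95, Stmn2 from -0.87 to -0.51, Nefh from -0.80 to -0.48 and Map2 from -0.76 to -0.44. Gad2 ranged from 0.36 to 0.89. Snap25 ranged from -0.22 to 0.10, Syt1 from -0.28 to 0.04 and Vamp2 from -0.09 to 0.23.

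**Figure D5:**
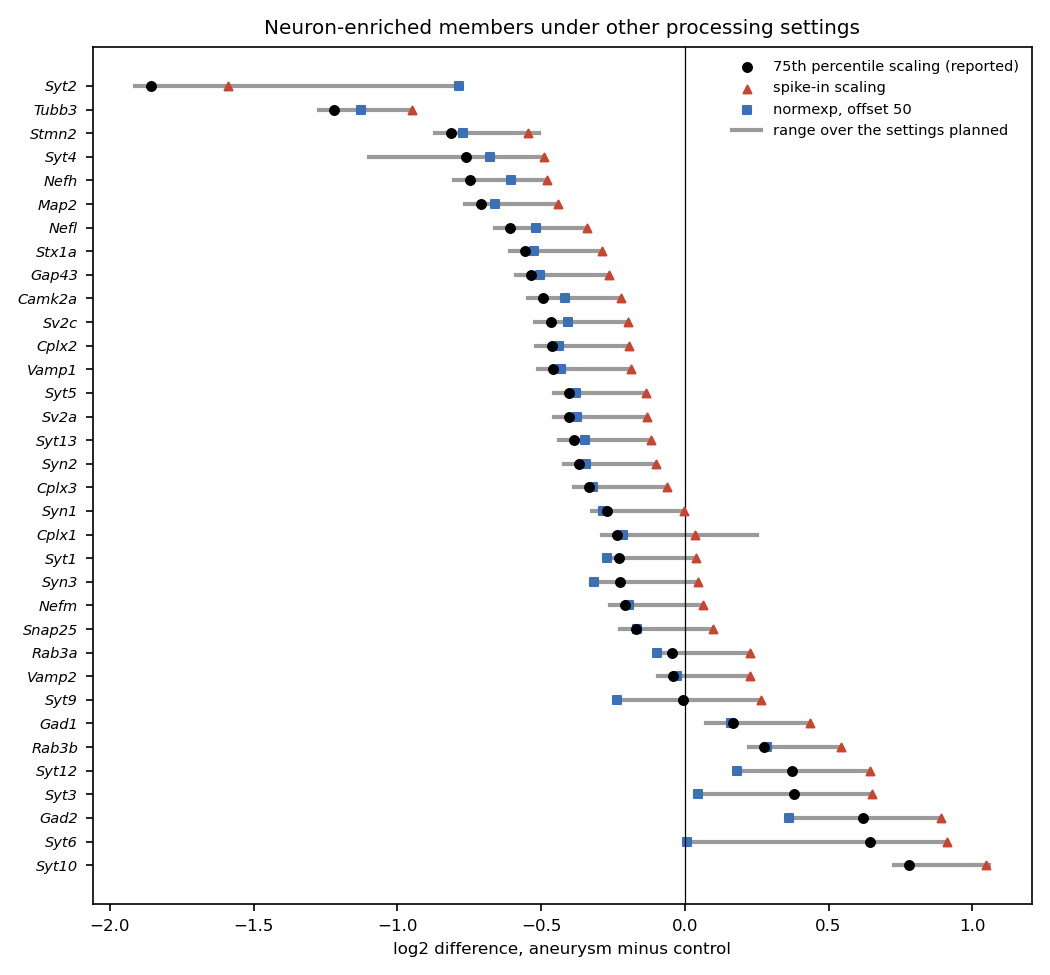
Log2 difference, aneurysm minus control (horizontal axis), of 34 neuron-enriched members (vertical axis) under the reported scaling (black circles), spike-in scaling (red triangles) and normexp (blue squares), with grey bars for the range over the planned settings. Tubb3, Stmn2, Nefh and Map2 stay below 0 and Gad2 above it, while spike-in scaling moves Snap25, Syt1 and Nefm to slightly above 0.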

How the data were processed

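Per the file headers, the authors quantified both array images with Feature Extraction 10.10.1.1. From the deposited tables the processed intensity of each spot was used, a linear and background-corrected value per the file headers. Flag columns that hold 0 or 1 mark outliers, saturation and whether a spot was well above background.

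Arrays were grouped by title. After log2 transformation, the 75th percentile of the 58717 spots that are not controls was subtracted within each array. Outlier spots (484 and 573) were left out, the spots of a probe were averaged, and a probe passed the background test where no more of its spots lacked the flag than carried it. Accessions without version were looked up in RefSeq's rat table for names only, since the array was designed on an older assembly: 18006 of 30367 probes matched 1 gene. The brightest probe that passed on either array stood for the gene. Where a gene passed on a single array, its difference is a bound, taken on the dim array from the higher of the gene's own value and the lowest level that passed. Spot error used the spot SD pooled in 20 bins of signal. Members above a 2-fold or 1.5-fold difference were counted beside all genes. The code was tested on simulated arrays. Tools were pandas 2.3.3, numpy 2.4.6 and, for normexp, limma 3.58.1.

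Named genes are the members at least 2-fold apart, the 2 largest differences of each role, a set of neuronal markers, other members by role, and the 4 largest differences of each other list. The members, lists and settings were chosen with earlier results of these data known. Alternatives were normexp (offset 50), quantile normalization, spike-in scaling, centring on the median or on the 75th percentile of probes that passed on both arrays, 2 other filters, the mean over probes, outlier spots kept, and thresholds of 1.5-fold and 4-fold. Mean spot signals were not used here, so normexp ran on the processed intensity. Normexp on median signals and counts without Rab30 to Rab39 were added after the data had been seen.

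The values of 2 members are not reported here one by one and are left out of plots that name genes; they remain in the counts and medians.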

Additional observations from a re-analysis of the deposited data

How the results depend on the processing

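The count of members at least 2-fold lower, 3 as reported, was 1 with normexp on the processed intensity, 1 with normexp on median signals, 1 with spike-in scaling (Syt2), 1 where both arrays had to be well above background (Tubb3) and 5 with no filter, where the dim genes Sv2b and Rab3c entered. It was 11 at 1.5-fold (8.43% of all genes) and 0 at 4-fold, and between 2 and 4 under the other settings run. At 1.5-fold, normexp on the processed intensity gave 6 of 71 members lower against 4.86% of all genes, and 0 higher against 0.985%. Over all genes, 465 of 11902 were at least 2-fold lower as reported, and 213 of 11574 with normexp on the processed intensity. The all-gene count was 193 of 11556 with normexp on median signals and 343 of 11952 with spike-in scaling. It was 237 of 11202 where both arrays had to be well above background and 756 of 15159 with no filter. The count of members at least 2-fold higher, 0 as reported, was 2 with quantile normalization, 4 with spike-in scaling, 1 with no filter and 6 at 1.5-fold. Over all genes, 105 of 11902 were at least 2-fold higher as reported and 165 of 11948 with quantile normalization. The all-gene count was 279 of 11952 with spike-in scaling and 183 of 15159 with no filter, and 4.25% were higher at 1.5-fold. The median over members, -0.12 as reported, turned to 0.15 with spike-in scaling and stayed below 0 under the other settings, from -0.20 to -0.05. The median of the neuronal members, -0.35 as reported, was -0.081 with spike-in scaling and between -0.40 and -0.25 otherwise. Spike-in scaling shifts all genes alike by construction. The offset added in normexp pulls the values of dim genes toward 0 by construction. For single members, 105 values under other settings moved by more than the replicate-spot error and 624 did not. Some settings leave most values unchanged by construction, such as the mean over probes for members with 1 probe. The 624 is therefore no measure of stability. No paired analysis was possible because each group has 1 array. The number of arrays limits precision throughout, and 5 members were well above background on a single array.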
